A study of Homo sapiens with 24 samples.

Results

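The 10 genes described here encode 4 WNT ligands (WNT5A, WNT5B, WNT6 and WNT9A), 4 frizzled receptors (FZD2, FZD7, FZD8 and FZD9), the transcription factor TCF7 and the secreted inhibitor DKK1. They were chosen as a list of symbols and found by symbol among the 62703 Ensembl genes of the count files, and all 10 were among the 16600 genes that passed the filter on low counts. The choice was made with earlier results of these data known. Counts of called genes set beside the share of all genes are therefore a description and not a test of the list. RNA-seq was performed in T/C-28a2 cells, an immortalised human chondrocyte line, in 24 libraries that form 6 groups of 4 biological replicates. WT Ctr cells were kept in isotonic media and WT Sor cells in media made hyperosmotic with 100 mM sorbitol for 7 days. WNK2 trans Ctr and WNK2 trans Sor cells were of WT genotype and were transfected with a plasmid expressing WNK2 48 hours before the same media were applied. WNK2- Ctr and WNK2- Sor cells carried a CRISPR deletion of WNK2 exon 2 and went through the same media without transfection. The WNK2- cells are 1 clone, and the transfected cells were set against untransfected cells, so that effects of the clone, the plasmid or the transfection itself cannot be told apart from those of WNK2.

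Each library held between 14153002 and 25664619 counts (median 17506505.5). Reads counted on WNK2 went against part of the labels. In the libraries labelled WT Ctr there were 1217 to 2568 and in those labelled WNK2 trans Ctr 163 to 290, the reverse of what a transfection label describes. The libraries labelled WT Sor had 266 to 314 and those labelled WNK2 trans Sor 2237 to 3739. Libraries of the deletion clone had 440 to 501 under WNK2- Ctr and 322 to 503 under WNK2- Sor, and counting over the whole gene does not separate transcripts with and without exon 2. WT Sor, though of WT genotype, thus had fewer WNK2 reads than either group of the deletion clone. Group names below are those of the labels. For the 10 genes, comparisons of WT Sor or WNK2- Ctr with WT Ctr are accompanied, as counts or by gene, by the same comparison with WNK2 trans Ctr, the other isotonic group of WT genotype. Of the chondrocyte markers examined, HAPLN1 ranged from 12.8 to 151 CPM (the usual scaling of counts to a common library total, with totals adjusted by the trimmed mean of M values, TMM), COL2A1 from 0.258 to 10.6 CPM and ACAN from 0.210 to 12.1 CPM, whereas SOX9 had 0 counts in every library. THY1, CD68 and RNF43 were also at 0 in all libraries. A 0 in these files does not show that a gene was silent, and its cause was not tested. The fibroblast marker COL1A1 ranged from 836 to 5385 CPM.

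WNT proteins are secreted, lipid-modified ligands that bind frizzled receptors at the cell surface. In the canonical branch, binding stabilises beta-catenin, which enters the nucleus and activates genes through the TCF/LEF factors, TCF7 among them. In the non-canonical branch, for which WNT5A is the best known ligand, frizzled receptors act with co-receptors such as ROR2 on cell polarity and movement. DKK1 blocks the canonical branch at the LRP5 and LRP6 co-receptors and is itself a target of beta-catenin. In cartilage, WNT signalling is known to guide chondrocyte differentiation, and WNT9A takes part in forming joints.

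All 10 genes were measured above the filter, but at very different levels. Per kilobase of exon, DKK1 and FZD2 stood highest, with group means of 107 to 170 CPM per kilobase for DKK1 and 60.1 to 110 for FZD2. WNT5A followed with 18.9 to 81.4 CPM per kilobase, whereas TCF7, FZD9 and WNT9A stayed between 0.740 and 3.47 CPM per kilobase in every group. The genes that varied most between groups were not the most abundant. The highest group mean of WNT6 was 28.8 times its lowest, that of WNT5B 11.6 times, that of FZD7 5.77 times, that of FZD2 1.83 times and that of DKK1 1.59 times.

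**Figure D1:**
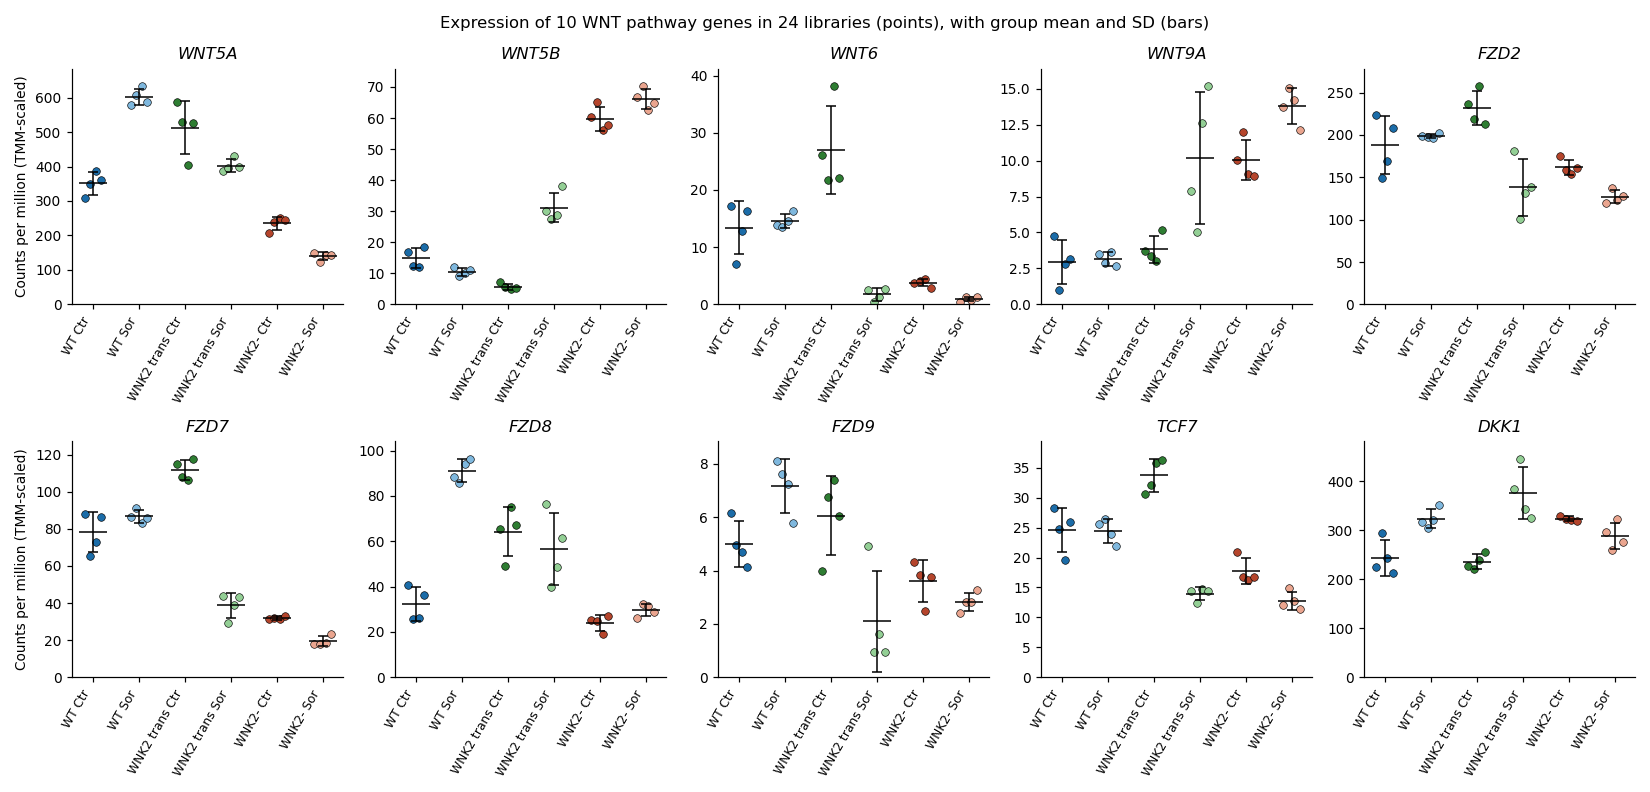
Expression of the 10 genes in CPM after TMM scaling (vertical axes, each from 0), by group; points are libraries, and bars give the group mean and SD of 4 libraries. WNT6, FZD7 and TCF7 were highest in WNK2 trans Ctr and lowest in WNK2- Sor, whereas WNT5B was lowest in WNK2 trans Ctr (5.72 CPM) and highest in WNK2- Sor (66.2 CPM).

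In the libraries labelled WT, WNT5A, FZD8 and DKK1 rose and WNT5B fell with sorbitol. By its labels this comparison is of chronic hyperosmotic with isotonic media in WT cells. WNK2 itself was at 137 ± 49.0 CPM in WT Ctr and 16.5 ± 1.03 CPM in WT Sor, so that sorbitol and the level of WNK2 cannot be told apart in it. In all, 4 of the 10 genes passed an adjusted p of 0.05 in edgeR's quasi-likelihood test, 3 higher and 1 lower, and 24.2% of all genes tested passed, 11.4% higher and 12.8% lower. The median log2 fold change was 0.14 over the 10 genes and 0.04 over all genes tested. The fits below are contrasts of 1 model of all 24 libraries, and several of them share a group, so that their values stand side by side and are not independent of each other.

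When WNK2 trans Ctr took the place of WT Ctr, WNT5A was no longer called, and 6 genes passed against WT Sor, 3 higher (WNT5B, FZD8 and DKK1) and 3 lower (WNT6, FZD7 and TCF7). The background was 15.1% of all genes, 8.74% higher and 6.32% lower, and the medians were 0.01 for the 10 genes and −0.0014 for all genes. WNT5B thus lay below WT Ctr and above WNK2 trans Ctr in the same WT Sor libraries. FZD8 and DKK1 were higher in WT Sor against either isotonic group. With WNK2 trans Ctr as the base, leaving out 1 of the 8 libraries took the call from WNT6 in 6 fits (−0.95 to −0.67), from FZD7 in 5 (−0.36 to −0.34) and from FZD8 in 7 (0.40 to 0.54).

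In WNK2- cells in isotonic media, WNT5B, WNT9A and DKK1 were higher and WNT5A, WNT6, FZD7 and TCF7 were lower than in WT Ctr. These 7 genes, 3 higher and 4 lower, compare with 42.1% of all genes called, 20.7% higher and 21.5% lower. The median was −0.45 over the 10 genes and 0.00 over all genes. Against WNK2 trans Ctr, 9 genes passed, the same 7 together with FZD2 and FZD8, both lower; 3 were higher and 6 lower, on a background of 47.7% of genes called, 24% higher and 23.7% lower. Here the medians were −0.84 and 0.01. The 7 genes called against WT Ctr had the same direction against both isotonic groups.

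Under sorbitol, the difference between WNK2- cells and WT Sor passed for every gene but DKK1. WNT5B and WNT9A were higher, and WNT5A, WNT6, FZD2, FZD7, FZD8, FZD9 and TCF7 were lower. These 9 genes, 2 higher and 7 lower, compare with 46.3% of all genes called, 23.7% higher and 22.7% lower, with medians of −1.14 over the 10 genes and 0.02 over all genes. WNK2 itself was at 16.5 ± 1.03 CPM in WT Sor and 19.6 ± 2.51 CPM in WNK2- Sor, and neither group was transfected.

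**Figure D2:**
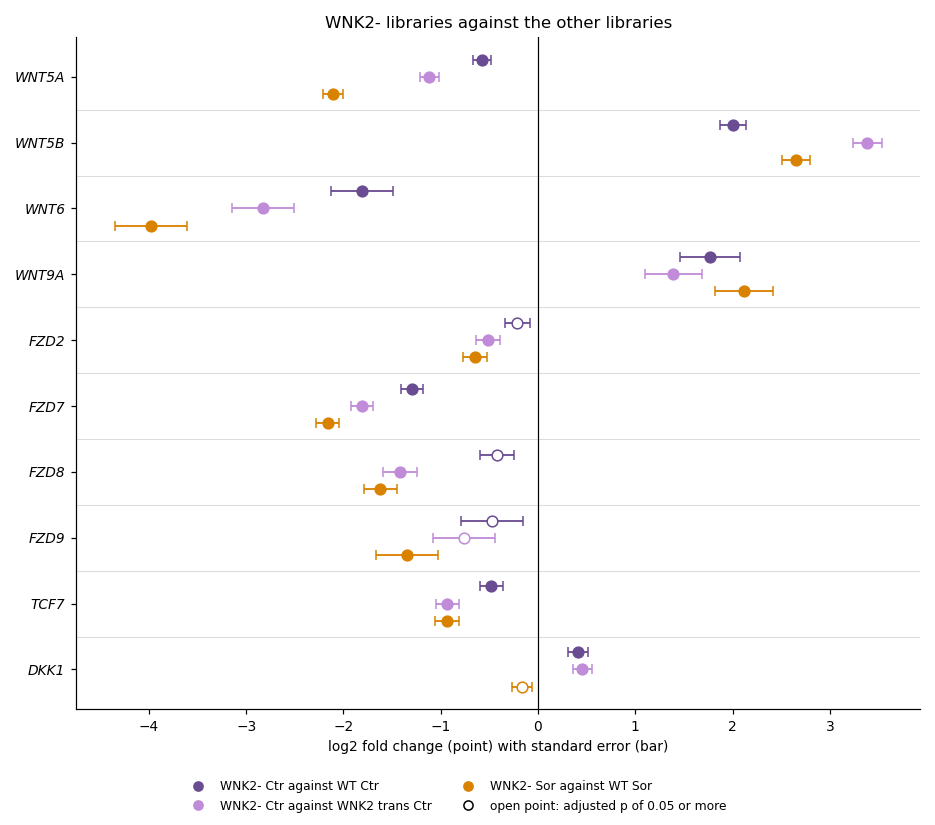
Log2 fold change (horizontal axis) of each gene in WNK2- libraries against WT Ctr, WNK2 trans Ctr and WT Sor; bars are standard errors, and open points did not pass an adjusted p of 0.05. WNT5B and WNT9A lie right of 0 and WNT5A, WNT6, FZD7 and TCF7 left of 0 in all 3 comparisons.

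Within WNK2- cells, sorbitol lowered 4 genes, WNT5A, WNT6, FZD7 and TCF7, and raised none of the 10. Of all genes, 14.9% were called, 8.25% higher and 6.64% lower, and the medians were −0.35 over the 10 genes and 0.00 over all genes. FZD8, higher in WT Sor than in WT Ctr, had a log2 fold change of 0.31 here (edgeR adjusted p = 0.264). When WNK2- Ctr and WNK2- Sor were fitted without the other groups, 7 genes passed, with WNT9A (0.46, adjusted p = 0.00574), FZD2 (−0.36, adjusted p = 0.00106) and FZD8 (0.30, adjusted p = 0.0392) added. Calls over all genes also rose in that fit, to 4825 from 2473.

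More of the genes passed with sorbitol under the WNK2 trans labels. WNK2 trans Sor had higher WNT5B, WNT9A and DKK1 and lower WNT5A, WNT6, FZD2, FZD7, FZD9 and TCF7 than WNK2 trans Ctr. These 9 genes, 3 higher and 6 lower, stand beside 48% of all genes called, 24.3% higher and 23.7% lower, with medians of −0.55 and 0.01. WNK2 itself was at 165 ± 38.4 CPM in WNK2 trans Sor and 13.7 ± 2.87 CPM in WNK2 trans Ctr, so that sorbitol and the level of WNK2 cannot be told apart here.

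WNK2 trans Sor also differed from WT Sor in 9 genes, with WNT5B and WNT9A higher and WNT5A, WNT6, all 4 frizzled receptors and TCF7 lower. The background was 31.6% of genes called, 16.1% higher and 15.5% lower, with medians of −0.63 over the 10 genes and 0.01 over all genes. In isotonic media WNK2 trans Ctr had higher WNT5A, WNT6, FZD7, FZD8 and TCF7 and lower WNT5B than WT Ctr, 5 higher and 1 lower of 6 called, beside 12.5% of all genes, 5.57% higher and 6.98% lower, and medians of 0.42 and 0.01. Of these, WNT6 lost its call without WT Ctr replicate 2 (log2 fold change 0.80, adjusted p = 0.0846), WT Ctr replicate 3 (1.00, adjusted p = 0.0536) or WNK2 trans Ctr replicate 3 (0.81, adjusted p = 0.0827). TCF7 lost its call without WT Ctr replicate 3 (0.36, adjusted p = 0.0518) and when only these groups were fitted (0.44, adjusted p = 0.106), and FZD2 gained one without WT Ctr replicate 1 (0.39, adjusted p = 0.0483).

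The difference between sorbitol responses was tested directly as an interaction. Between WNK2- and WT labels it passed for 6 genes. The response was more negative in WNK2- cells for 5 of them (WNT5A, WNT6, FZD7, FZD8 and DKK1) and more positive for WNT5B, beside 8.65% of all genes, 3.99% higher and 4.66% lower, and medians of −0.72 over the 10 genes and −0.01 over all genes. Between WNK2 trans and WT labels it passed for 9 genes, more negative for 7 (WNT5A, WNT6, FZD2, FZD7, FZD8, FZD9 and TCF7) and more positive for WNT5B and WNT9A. The background there was 35.5% of genes, 18.1% higher and 17.4% lower, and the medians were −1.19 and 0.01. Both interactions contain WT Ctr and WT Sor, between which WNK2 itself differed, and the second also contains WNK2 trans Ctr, where WNK2 was lower than in WT Ctr. The genotype interaction was not fitted with WNK2 trans Ctr in place of WT Ctr. WT Sor against WNK2 trans Ctr gave WNT5A 0.23, WNT6 −0.89, FZD7 −0.37, FZD8 0.51, DKK1 0.46 and WNT5B 0.88. Sorbitol in WNK2- cells gave −0.75, −2.05, −0.72, 0.31, −0.17 and 0.15 for the same genes. WNT5B was thus not more positive in WNK2- cells on that base, and FZD8 differed little.

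**Figure D3:**
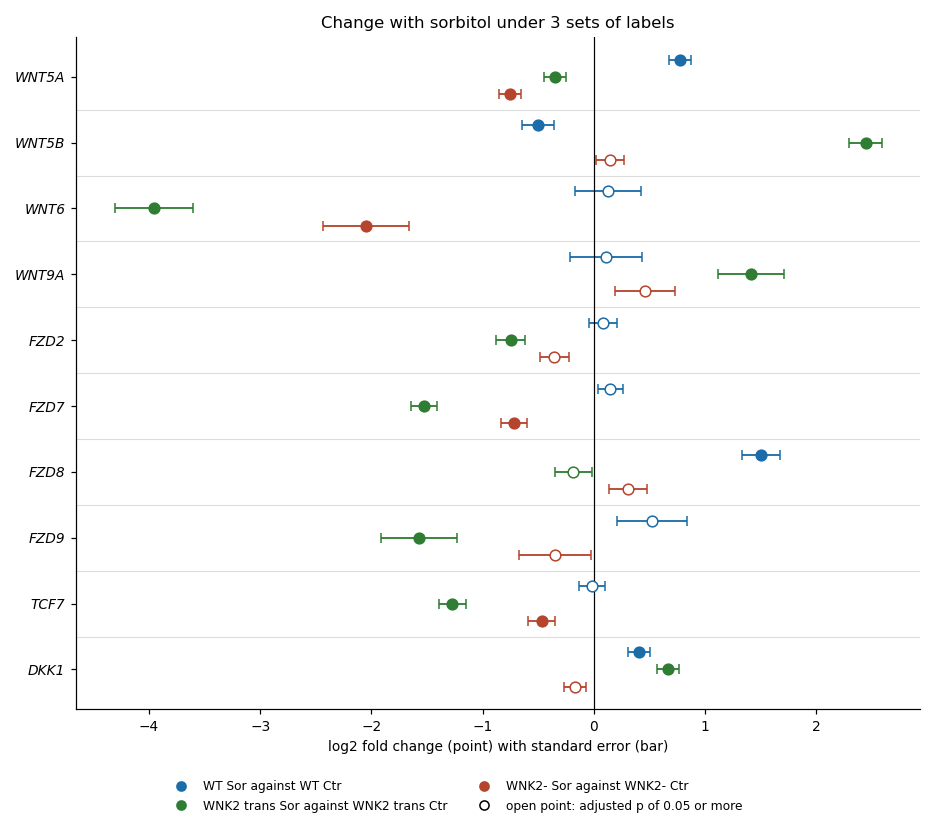
Log2 fold change with sorbitol (horizontal axis) in the libraries labelled WT, WNK2 trans and WNK2-; bars are standard errors, and open points did not pass an adjusted p of 0.05. WNT5A lies right of 0 under the WT labels (0.78) and left of 0 under the others (−0.35 and −0.75).

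WNT5A (ENSG00000114251, GRCh38 chromosome 3, 55465715 to 55490539, minus strand) was the most abundant of the 4 ligands per kilobase. In WT Ctr its level was 307, 349, 387 and 362 CPM in replicates 1 to 4, and in WT Sor 579, 607, 634 and 587 CPM. The ranges did not overlap, and WT Sor was 1.71 times as high (log2 fold change 0.78, standard error 0.10, edgeR adjusted p = 3.04e-06). In WNK2- Ctr it was 208, 239.9, 251 and 244 CPM, and in WNK2- Sor 149, 123, 143 and 144 CPM. All 8 WNK2- libraries lay below every library of WT genotype. WNK2- Ctr was 0.671 times as high as WT Ctr (−0.57, standard error 0.10, adjusted p = 3.43e-05) and 0.460 times as high as WNK2 trans Ctr (−1.12, standard error 0.10, adjusted p = 7.25e-10). Within WNK2- cells sorbitol lowered the level to 0.593 times that of WNK2- Ctr (−0.75, standard error 0.10, adjusted p = 3.74e-06). The genotype by sorbitol interaction was −1.53 (standard error 0.14, adjusted p = 6.09e-08), and in WNK2- Sor the level was 0.232 times that of WT Sor (−2.11, adjusted p = 7.91e-15).

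The transfection labels held intermediate levels of WNT5A. WNK2 trans Ctr had 588, 530.0, 406 and 528 CPM and WNK2 trans Sor 386, 396, 432 and 398 CPM, overlapping ranges that differed by −0.35 on the log2 scale (standard error 0.10, adjusted p = 0.00455). WT Sor and WNK2 trans Ctr, the highest pair of groups, overlapped, and their difference was 0.23 (standard error 0.10, adjusted p = 0.111). It passed without WNK2 trans Ctr replicate 1 (0.30, adjusted p = 0.0423). The order of group means was WT Sor (602 ± 24.3 CPM, SD, n = 4), WNK2 trans Ctr (513 ± 76.6), WNK2 trans Sor (403 ± 20.1), WT Ctr (351 ± 33.4), WNK2- Ctr (236 ± 18.8) and WNK2- Sor (140 ± 11.3), and neighbours among the first 4 overlapped.

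A tonicity-responsive element, the motif bound by the osmotic stress factor NFAT5, was sought on both strands by its consensus in the RefSeq promoters (GRCh38.p14, 250 bases before to 50 after each start site), where 4.92% of 35116 promoters hold a match. Of the 10 genes, 8 were in the promoter table with 11 promoters, and 1 promoter matched, that of the first WNT5A start. It is shown because WNT5A was higher with sorbitol under the WT labels, where WNK2 itself also differed, and lower with sorbitol in WNK2- cells. Against WNK2 trans Ctr, WNT5A in WT Sor did not pass (0.23, edgeR adjusted p = 0.111). A link between the motif and these levels was not tested. The match, in capitals, starts at position −60 on the strand of the gene. A match is a run of letters and not a measured site.
WNT5A, chr3:55487257-55487556, minus strand: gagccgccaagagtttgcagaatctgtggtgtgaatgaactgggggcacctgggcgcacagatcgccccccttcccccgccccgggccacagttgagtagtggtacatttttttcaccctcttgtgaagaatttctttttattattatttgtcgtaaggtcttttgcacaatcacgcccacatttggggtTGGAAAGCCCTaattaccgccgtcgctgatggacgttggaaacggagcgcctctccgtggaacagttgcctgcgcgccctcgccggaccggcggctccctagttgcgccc

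WNT5B (ENSG00000111186, chromosome 12, 1529891 to 1647243, plus strand), a close relative of WNT5A that is also counted among non-canonical ligands, was higher in WNK2- cells, where WNT5A was lower. In WT Ctr it had 16.8, 12.4, 11.95 and 18.5 CPM, and in WNK2- Ctr 60.4, 65.0, 56.0 and 57.8 CPM. WNK2- Ctr was 4.01 times as high, with no overlap (log2 fold change 2.00, standard error 0.14, edgeR adjusted p = 1.5e-11). WNK2 trans Ctr held the lowest levels, 7.11, 5.71, 4.89 and 5.19 CPM, and against them WNK2- Ctr was 10.5 times as high (3.39, standard error 0.15, adjusted p = 1.6e-15).

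With sorbitol WNT5B was 11.91, 9.04, 10.1 and 11 CPM in WT Sor, 29.9, 27.6, 28.9 and 38.1 CPM in WNK2 trans Sor, and 66.9, 70.3, 62.5 and 65.0 CPM in WNK2- Sor. Every WT Sor library lay below every WT Ctr library, by a margin as small as the gap from 11.91 to 11.95 CPM (log2 fold change −0.50, standard error 0.14, adjusted p = 0.0109), although the call was lost without WT Ctr replicate 4 (−0.38, adjusted p = 0.0504) and when only these groups were fitted (−0.48, adjusted p = 0.0629). WNK2 trans Sor was 5.45 times as high as WNK2 trans Ctr (2.45, standard error 0.15, adjusted p = 7.2e-13), whereas WNK2- Sor and WNK2- Ctr overlapped (0.15, adjusted p = 0.508). WNK2- Sor was 6.29 times as high as WT Sor (2.65, standard error 0.14, adjusted p = 5.44e-14). The genotype by sorbitol interaction was 0.65 (standard error 0.19, adjusted p = 0.0335) and lost its call in 12 of the 16 fits that each left out 1 library of these groups (0.53 to 0.67, adjusted p = 0.0509 to 0.0833), and with no filter on low counts (0.60, adjusted p = 0.0728). Against WNK2 trans Ctr, WT Sor was 0.88 higher on the log2 scale, more than the 0.15 between WNK2- Sor and WNK2- Ctr. Among 7 tested genes that start within 1 Mb of WNT5B, the median was 0.30 in WNK2- Ctr against WT Ctr, with 3 higher and 1 lower.

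WNT6 (ENSG00000115596, chromosome 2, 218859821 to 218874233, plus strand), another secreted ligand of the family, had the widest range of the 10 genes. It was measured at 17.2, 7.02, 12.8 and 16.3 CPM in WT Ctr, 13.8, 13.6, 14.6 and 16.3 CPM in WT Sor, and 26.1, 21.8, 38.2 and 22.1 CPM in WNK2 trans Ctr. It was far lower in the other 3 groups, at 2.49, 0.437, 1.26 and 2.75 CPM in WNK2 trans Sor, 3.81, 4.02, 4.50 and 2.90 CPM in WNK2- Ctr, and 0.371, 1.27, 0.841 and 1.27 CPM in WNK2- Sor. Every library of these 3 groups lay below every library of the first 3, and the lowest levels rest on 8 to 55 reads in WNK2 trans Sor and 10 to 28 in WNK2- Sor.

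Under the WT labels WNT6 did not pass with sorbitol (0.13 on the log2 scale, standard error 0.30, edgeR adjusted p = 0.798). It fell to 0.0644 times the isotonic level under the WNK2 trans labels (−3.96, standard error 0.35, adjusted p = 1.37e-09) and to 0.242 times in WNK2- cells (−2.05, standard error 0.39, adjusted p = 0.000536). Both interactions passed, at −4.08 (standard error 0.46, adjusted p = 1.53e-07) for transfection and −2.17 (standard error 0.49, adjusted p = 0.00618) for genotype. WNK2- Ctr had 0.286 times the level of WT Ctr (−1.81, adjusted p = 6.01e-05), 0.141 times that of WNK2 trans Ctr (−2.82, adjusted p = 6.81e-08), and WNK2- Sor 0.0634 times that of WT Sor (−3.98, adjusted p = 2.61e-09). The median of 41 tested neighbours within 1 Mb was −0.09 in WNK2- Ctr against WT Ctr, with 4 higher and 10 lower. It was −0.33 against WNK2 trans Ctr (5 higher and 15 lower) and −0.30 in WNK2- Sor against WT Sor (5 higher and 14 lower). Their part in the WNT6 values was not tested.

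WNT9A (ENSG00000143816, chromosome 1, 227918656 to 227947898, minus strand), the ligand of joint formation, shared the direction of WNT5B in WNK2- cells. WT Ctr libraries held 1.03 to 4.72 CPM, WT Sor libraries 2.67 to 3.64 CPM and WNK2 trans Ctr libraries 3.00 to 5.19 CPM. WNK2 trans Sor libraries held 5.03 to 15.2 CPM, WNK2- Ctr libraries 8.93 to 11.96 CPM and WNK2- Sor libraries 12.1 to 15.1 CPM. WNK2- libraries lay above all 12 libraries of WT Ctr, WT Sor and WNK2 trans Ctr. WNK2- Ctr was 3.41 times as high as WT Ctr (log2 fold change 1.77, standard error 0.30, edgeR adjusted p = 4.62e-05), 2.62 times as high as WNK2 trans Ctr (1.39, adjusted p = 0.000366), and WNK2- Sor 4.34 times as high as WT Sor (2.12, adjusted p = 2.15e-06).

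With sorbitol WNT9A did not pass under the WT labels (log2 fold change 0.11, standard error 0.33, adjusted p = 0.842) or in WNK2- cells (0.46, standard error 0.27, adjusted p = 0.291), where the groups did not overlap. WT Sor against WNK2 trans Ctr did not pass either (−0.27, adjusted p = 0.641). Under the WNK2 trans labels it rose 2.67 times (1.42, standard error 0.30, adjusted p = 0.00034), with replicate 2 of WNK2 trans Sor inside the range of WNK2 trans Ctr. The transfection by sorbitol interaction of 1.31 (adjusted p = 0.023) was lost without WT Ctr replicate 1 (0.99, adjusted p = 0.0774), without WNK2 trans Sor replicate 4 (1.03, adjusted p = 0.0694), and when only the groups compared were fitted (1.29, adjusted p = 0.063). It rests on 16 to 304 reads per library in those groups.

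FZD7 (ENSG00000155760, chromosome 2, 202034587 to 202038445, plus strand), a receptor that serves both branches, showed the clearest order among the receptors. It was 88.1, 65.3, 73.0 and 86.5 CPM in WT Ctr and 86.3, 91.4, 83.4 and 85.8 CPM in WT Sor, overlapping ranges whose difference did not pass (0.15 on the log2 scale, standard error 0.11, edgeR adjusted p = 0.369). WNK2 trans Ctr stood above both at 115, 108, 107 and 118 CPM, and against it WT Sor was lower (−0.37, adjusted p = 0.0281). WNK2 trans Sor had 43.8, 29.1, 38.8 and 43.4 CPM, WNK2- Ctr 31.3, 31.9, 31.2 and 33.1 CPM, and WNK2- Sor 17.8, 17.9, 18.4 and 23.4 CPM.

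All 12 libraries of the last 3 groups lay below the other 12. FZD7 in WNK2- Ctr was 0.407 times WT Ctr (log2 fold change −1.29, standard error 0.12, adjusted p = 2.03e-09) and 0.285 times WNK2 trans Ctr (−1.81, adjusted p = 3.02e-12). With sorbitol it was 0.607 times as high in WNK2- cells (−0.72, standard error 0.12, edgeR adjusted p = 8.89e-05). Under the WNK2 trans labels, where WNK2 itself also differed, it was 0.347 times as high (−1.53, standard error 0.12, adjusted p = 7.78e-11). The interactions were −0.87 (adjusted p = 0.00121) for genotype and −1.68 (adjusted p = 1.37e-08) for transfection. Among 19 tested neighbours within 1 Mb, the median in WNK2- Ctr against WT Ctr was −0.04, with 2 higher and 3 lower.

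FZD8 (ENSG00000177283, chromosome 10, 35638249 to 35642278, minus strand), a receptor often paired with canonical ligands, had the largest rise with sorbitol under the WT labels among the 10 genes. It was 40.7, 25.9, 26.1 and 36.2 CPM in WT Ctr and 88.6, 85.5, 94.1 and 96.4 CPM in WT Sor, 2.83 times as high with no overlap (log2 fold change 1.5, standard error 0.17, edgeR adjusted p = 7.89e-07). Against WNK2 trans Ctr, at 65.6, 49.2, 75.0 and 67.2 CPM, WT Sor was 1.42 times as high (0.51, standard error 0.17, adjusted p = 0.0398), and that difference missed the threshold in 7 of the 8 fits that each left out 1 library of these groups, where its adjusted p was 0.0605 to 0.149.

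In WNK2- cells FZD8 did not pass with sorbitol, at 25.4, 24.7, 19.1 and 26.9 CPM in WNK2- Ctr and 26.2, 32.1, 31.5 and 28.9 CPM in WNK2- Sor. The groups overlapped by a single pair of libraries. The genotype by sorbitol interaction was −1.20 (standard error 0.24, edgeR adjusted p = 0.00234), with WT Ctr as its isotonic WT group. Against WNK2 trans Ctr, WT Sor was 0.51 higher on the log2 scale, beside 0.31 between WNK2- Sor and WNK2- Ctr. The interaction was not fitted on that base. WNK2- Sor held 0.326 times the FZD8 of WT Sor (−1.62, standard error 0.17, adjusted p = 2.13e-08). WNK2- Ctr against WT Ctr sat at the threshold (−0.42, standard error 0.17, adjusted p = 0.0501) and passed without WT Ctr replicate 2 (−0.51, adjusted p = 0.0261), without WT Ctr replicate 3 (−0.51, adjusted p = 0.0271) and with DESeq2 (adjusted p = 0.0495). Against WNK2 trans Ctr the level in WNK2- Ctr was 0.374 times as high, without overlap (−1.42, standard error 0.17, adjusted p = 2.02e-07). WNK2 trans Sor ranged from 40.0 to 76.5 CPM and overlapped WNK2 trans Ctr (−0.18, adjusted p = 0.384). The exons of FZD8 hold the microRNA gene MIR4683 over 81 bases, which had 0 counts.

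FZD2 (ENSG00000180340, chromosome 17, 44557459 to 44559570, plus strand), a receptor of WNT5A, varied least among the receptors. Group means in CPM (SD, n = 4) were 188 ± 34.2 in WT Ctr, 199 ± 2.28 in WT Sor, 232 ± 19.97 in WNK2 trans Ctr, 138 ± 33.2 in WNK2 trans Sor, 162 ± 8.86 in WNK2- Ctr and 127 ± 7.78 in WNK2- Sor. Apart from WNK2 trans Ctr, each group overlapped the next in this order of levels. It was lower in WNK2- Sor than in WT Sor (log2 fold change −0.65, standard error 0.13, edgeR adjusted p = 0.00018), and in WNK2 trans Sor than in WNK2 trans Ctr (−0.75, standard error 0.13, adjusted p = 3.79e-05). Genes near FZD2 were also lower in WNK2- Sor, with a median of −0.71 over 48 tested neighbours within 1 Mb, 26 called lower and 2 higher, whose part in the FZD2 value was not tested.

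FZD9 (ENSG00000188763, chromosome 7, 73433783 to 73436120, plus strand), a receptor known from bone-forming cells, was the least abundant receptor per kilobase. WT Ctr libraries held 4.12 to 6.17 CPM, WT Sor libraries 5.78 to 8.12 CPM and WNK2 trans Ctr libraries 3.99 to 7.40 CPM. WNK2- Ctr libraries held 2.49 to 4.33 CPM and WNK2- Sor libraries 2.42 to 3.25 CPM. In WNK2 trans Sor, replicate 1 held 4.91 CPM and the other replicates 0.929, 1.61 and 0.949 CPM, so that this group overlapped all the isotonic ones. FZD9 was lower in WNK2- Sor than in WT Sor (log2 fold change −1.35, standard error 0.32, edgeR adjusted p = 0.00124) and lower in WNK2 trans Sor than in WNK2 trans Ctr (−1.57, standard error 0.34, adjusted p = 0.00049). WNK2- Ctr against WNK2 trans Ctr (−0.76, adjusted p = 0.0526) passed without WNK2 trans Ctr replicate 1 (−0.91, adjusted p = 0.0279) and with DESeq2 (−0.74, adjusted p = 0.0429).

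TCF7 (ENSG00000081059, chromosome 5, 134114711 to 134151865, plus strand), the factor through which beta-catenin can act on its targets, was also highest in WNK2 trans Ctr. It had 28.3, 24.7, 19.7 and 25.9 CPM in WT Ctr, 25.5, 26.4, 23.9 and 21.9 CPM in WT Sor, and 30.6, 32.2, 35.7 and 36.3 CPM in WNK2 trans Ctr. In WNK2- Ctr it had 20.9, 16.8, 16.2 and 16.8 CPM, in WNK2- Sor 12.04, 14.8, 12.8 and 11.4 CPM, and in WNK2 trans Sor 14.5, 12.4, 14.7 and 14.3 CPM. WT Ctr and WT Sor overlapped, and their difference was −0.01 on the log2 scale (standard error 0.12, edgeR adjusted p = 0.952). WT Sor was lower than WNK2 trans Ctr without overlap (−0.47, standard error 0.12, adjusted p = 0.00708).

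WNK2- Ctr was 0.717 times as high in TCF7 as WT Ctr (log2 fold change −0.48, standard error 0.12, adjusted p = 0.00194), with replicate 1 inside the WT Ctr range, and 0.524 times as high as WNK2 trans Ctr without overlap (−0.93, adjusted p = 3.8e-07). With sorbitol TCF7 was 0.722 times as high in WNK2- cells (−0.47, standard error 0.12, edgeR adjusted p = 0.00742). It was 0.414 times as high under the WNK2 trans labels, where WNK2 itself also differed (−1.27, standard error 0.12, adjusted p = 3.42e-09). The genotype by sorbitol interaction did not pass (−0.46, standard error 0.17, adjusted p = 0.0895), although it did without WT Ctr replicate 1 (−0.54, adjusted p = 0.0423) or WNK2- Sor replicate 2 (−0.54, adjusted p = 0.0491). The exons of TCF7 overlap those of SKP1 on the other strand over 210 bases. Whether counting used strand is not given in the sources used here, and reads from that stretch could belong to either gene.

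DKK1 (ENSG00000107984, chromosome 10, 52314296 to 52318042, plus strand), the secreted blocker of the canonical branch, varied least of all. It was 224, 294, 244 and 212 CPM in WT Ctr and 317, 305, 321 and 351 CPM in WT Sor, 1.33 times as high with no overlap (log2 fold change 0.41, standard error 0.10, edgeR adjusted p = 0.00443). Against WNK2 trans Ctr, at 227, 221, 239 and 256 CPM, WT Sor was 1.37 times as high (0.46, standard error 0.10, adjusted p = 0.00258). WNK2 trans Sor had 385, 446, 344 and 326 CPM, 1.59 times WNK2 trans Ctr (0.67, standard error 0.10, adjusted p = 6.68e-06).

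In WNK2- cells DKK1 was already high in isotonic media, at 330.0, 324, 322 and 319 CPM, 1.33 times WT Ctr (log2 fold change 0.41, standard error 0.10, edgeR adjusted p = 0.00192) and 1.37 times WNK2 trans Ctr (0.46, standard error 0.10, adjusted p = 0.000569). With sorbitol it was 296, 259, 323 and 276 CPM, overlapping WNK2- Ctr (−0.17, standard error 0.10, adjusted p = 0.305). The genotype by sorbitol interaction was −0.58 (standard error 0.14, adjusted p = 0.012). WNK2- Sor and WT Sor differed by −0.17 (adjusted p = 0.187), a difference that passed when only these groups were fitted (−0.18, adjusted p = 0.0346). DKK1 exons overlap the antisense gene PRKG1-AS1 over 212 bases, and that gene had 239 counts. Over the 2 tested genes that start within 1 Mb of DKK1, the median was 1.40 in WNK2- Ctr against WT Ctr. It was 1.96 against WNK2 trans Ctr, and 1 gene was called higher in each. In WNK2 trans Sor against WNK2 trans Ctr the median was 2.13, with 2 higher. In WNK2- Sor against WT Sor, where DKK1 did not pass, it was 1.09. The part of this stretch in the DKK1 values was not tested.

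The promoter of DKK1 is shown because DKK1 is described as a direct target of TCF/LEF factors and its promoter held 2 matches. The TCF/LEF letters CTTTGNN, in which each N had to be A or T, were sought on both strands. They are found in 13.8% of the 35116 RefSeq promoters, and among the 11 promoters of these genes in that of DKK1, with 2 matches starting at positions −95 and −76, and in that of the second TCF7 start, with 1 match. The matches in DKK1 are in capitals.
DKK1, chr10:52314031-52314330, plus strand: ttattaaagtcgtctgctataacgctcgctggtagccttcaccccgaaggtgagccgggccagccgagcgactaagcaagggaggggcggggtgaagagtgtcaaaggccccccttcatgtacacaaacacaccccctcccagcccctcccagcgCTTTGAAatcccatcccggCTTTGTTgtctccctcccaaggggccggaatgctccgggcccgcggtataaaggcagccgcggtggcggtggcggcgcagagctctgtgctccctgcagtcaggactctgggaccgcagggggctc

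Several of the 10 genes had like patterns across groups. Over the 24 libraries, the log2 CPM of WNT6 and FZD2 had a Pearson correlation of 0.94, WNT6 and TCF7 of 0.94, WNT6 and FZD7 of 0.93 and FZD7 and TCF7 of 0.91, whereas WNT5B ran against FZD7 at −0.94 and against WNT5A at −0.84. Other pairs were only loosely alike, such as DKK1 with WNT5A (−0.03) and FZD8 (0.05), and FZD9 with WNT5A (0.37) and FZD8 (0.38). These libraries are 4 each of 6 groups and share their groups' differences, so the values describe group patterns. Outside the 10 genes, those most like WNT5B among 9640 candidates were DIAPH1 (0.99) and CDH4 (0.98), those most like FZD7 were RHBDL3 (0.99) and PIANP (0.99), and those most like WNT5A were ANTXR1 and FN1 (both 0.98). For WNT6 they were ERBB2 and VWA1 (both 0.98), for FZD2 FAM171A2 and CILP2 (both 0.98), for TCF7 KLHDC3 (0.97) and CNIH2 (0.96), and for FZD8 UCN2 and PGPEP1 (both 0.91). DKK1 had the least like neighbours, ANKLE2 (0.86) and F2RL1 (0.83).

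Sums over lists of cell type markers also differed between groups. The summed fibroblast list (COL1A1, COL1A2, COL3A1, PDGFRA and THY1, of which 2 or 3 had a group mean of at least 1 CPM) reached 5235 to 6416 CPM in WNK2 trans Ctr, 3520 to 3767 CPM in WT Sor, 2695 to 3863 CPM in WT Ctr and 2573 to 2934 CPM in WNK2- Ctr. It was lower in both other sorbitol groups, at 1061 to 1790 CPM in WNK2 trans Sor and 924 to 1118 CPM in WNK2- Sor. THY1 had 0 counts in all libraries. The summed chondrocyte list of 10 genes was 18.6 to 24.2 CPM in WNK2- libraries and 63.0 to 156 CPM in the others, but most of that sum was HAPLN1. In WNK2 trans Sor against WNK2 trans Ctr, HAPLN1 had a higher mean (117 and 46.3 CPM), whereas COL2A1 (1.31 and 9.75 CPM), ACAN (1.63 and 8.47 CPM), COMP (0.503 and 3.06 CPM) and MATN3 (1.16 and 4.68 CPM) had lower ones. The endothelial list ran from 99.0 to 106 CPM in WNK2 trans Sor and from 24.3 to 67.0 CPM in the other groups. The macrophage list was 15.6 to 24.1 CPM in WNK2 trans Ctr and 5.41 to 16.1 CPM elsewhere, with CD68 at 0 counts, the hypertrophic list 12 to 26.8 CPM in WNK2- libraries and 30.04 to 62.7 CPM elsewhere, with COL10A1 and SPP1 at 0 counts, and the epithelial list was at most 2.72 CPM. Few genes carried these sums. The fibroblast sum was mostly COL1A1, and PDGFRA was lower in WNK2 trans Ctr (0.865 CPM) than in WT Sor (2.03 CPM). CD14 was 17.0 CPM in WNK2 trans Ctr and 2.23 in WNK2- Ctr, whereas CSF1R was 2.66 and 3.64. On the endothelial list PECAM1 and CDH5 led, whereas KDR and VWF were highest in WNK2- Sor (2.64 and 1.86 CPM). The hypertrophic sum was mostly RUNX2. The part of the markers in the results was not tested. In bulk RNA, fewer cells of a type and less RNA per cell cannot be told apart.

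Replicates were not equally close. For pairs of replicates, counts over all genes were set against sampling noise as a chi-square per degree of freedom. It was 2.3 to 5.12 in WT Sor, 19.5 to 63.9 in WT Ctr and 12 to 67.9 in WNK2 trans Sor. In WNK2 trans Ctr it was 6.33 to 53.9, in WNK2- Ctr 3.66 to 18.9 and in WNK2- Sor 5.98 to 25.4. WNK2 trans Sor replicate 2 was the lowest of its group in 8 of the 10 genes and the highest in 1, DKK1. WT Ctr replicate 1 was the highest of its group in 7, and WT Ctr replicate 2 was the lowest in 5.

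Beyond these genes, 91 other WNT pathway genes were listed by role, and 69 were tested. RNF43, RSPO3 and SP5 had 0 counts in all libraries. With sorbitol under the WT labels, 14 of the 69 were higher and 5 lower, with a median log2 fold change of 0.16, beside the 24.2% of all genes called. The inhibitors, a list of secreted proteins with the membrane-bound DKK1 receptors KREMEN1 and KREMEN2, had 5 of 7 higher and none lower and a median of 0.67. DKK3 rose from 127 ± 5.47 to 215 ± 6.08 CPM (0.76, edgeR adjusted p = 1.3e-06) and KREMEN2 from 10.6 ± 5.32 to 20.5 ± 0.842 (0.96, adjusted p = 0.0204). Of 9 beta-catenin targets 4 were higher and 1 lower, with NKD1 (1.23, adjusted p = 0.00742) and TNFRSF19 (0.82, adjusted p = 8.19e-06) among the rises. The targets LEF1 and AXIN2, at low levels, had means of 2.25 and 2.96 CPM in WT Ctr and 0.955 and 2.57 CPM in WT Sor. The mRNA of beta-catenin itself, CTNNB1, fell (−0.36, adjusted p = 0.00174). Against WNK2 trans Ctr, WT Sor had 8 of the 69 higher and 5 lower, with a median of 0.02, beside the 15.1% of all genes called. There 3 of 7 inhibitors were higher and none lower, among them DKK3 (0.57, adjusted p = 6.11e-05) and FRZB (0.83, adjusted p = 1.94e-07), while KREMEN2 was at 19.1 CPM in WNK2 trans Ctr, near its level in WT Sor. Of 9 beta-catenin targets 3 were higher there and 1 lower. TNFRSF19 was higher there too (0.62, edgeR adjusted p = 0.000231). CCND1 was higher in WT Sor (92.8 CPM) than in WNK2 trans Ctr (50.7 CPM, log2 fold change 0.87, adjusted p = 1.69e-05). Its mean in WT Ctr was 109.9 CPM, above WT Sor. None of the 13 cytoplasmic genes, CTNNB1 among them, passed against WNK2 trans Ctr.

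In WNK2- Ctr against WT Ctr, 14 of the 69 were higher and 22 lower, with a median of −0.06, beside the 42.1% of all genes called. The receptors and co-receptors had 8 lower and 1 higher of 11, with a median of −0.41. PTK7, a co-receptor of planar polarity, fell from 269 ± 16.5 to 101 ± 1.88 CPM (−1.42, edgeR adjusted p = 2.01e-13) and FZD3 from 28.8 ± 7.78 to 15.5 ± 1.04 (−0.89, adjusted p = 8.83e-05), whereas ROR1 rose from 5.96 ± 1.83 to 11.9 ± 1.73 (1.00, adjusted p = 0.000416). The soluble inhibitor FRZB fell (−1.25, adjusted p = 3.13e-11). Among 9 beta-catenin targets 5 were higher and 2 lower. CCND1, the cyclin of G1, rose from 109.9 ± 21.8 to 324 ± 14.3 CPM (1.56, adjusted p = 2.23e-10), and TNFRSF19 fell (−0.46, adjusted p = 0.00192). The low-level targets LEF1 and AXIN2 had means of 2.25 and 2.96 CPM in WT Ctr and 0.227 and 2.38 CPM in WNK2- Ctr. Against WNK2 trans Ctr 8 of 11 receptors were lower and CCND1 was 2.68 higher on the log2 scale (adjusted p = 1.03e-14). There 12 of the 69 were higher and 28 lower, beside the 47.7% of all genes called.

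Under sorbitol, WNK2- cells had 9 of the 69 higher and 32 lower than WT Sor, with a median of −0.42, beside the 46.3% of all genes called. Of the receptors, 9 of 11 were lower and ROR1 was higher. PTK7 was 47.7 ± 2.31 CPM against 261 ± 3.36 (−2.45, edgeR adjusted p = 5.13e-18) and ROR2, the WNT5A co-receptor, 17.2 ± 2.26 against 42.3 ± 2.51 (−1.30, adjusted p = 5.41e-11). On the inhibitor list, KREMEN1 (−1.69, adjusted p = 4.29e-09) and FRZB (−1.98, adjusted p = 3.01e-15) were lower, 4 of 7 in all and none higher. CCND1 was 391.6 ± 14.7 CPM against 92.8 ± 3.6 (2.08, adjusted p = 7.68e-13). Of the ligands, WNT7B was higher (0.88, adjusted p = 0.00458) and WNT2B lower (−1.04, adjusted p = 0.000941).

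WNK2 trans Sor against WT Sor gave 10 higher and 22 lower of the 69, with a median of −0.26, beside the 31.6% of all genes called. All 7 inhibitors passed, 2 higher and 5 lower, with SFRP1 at 469.9 ± 20.3 CPM against 335 ± 10.6 (0.49, edgeR adjusted p = 5.44e-06) and KREMEN1 lower (−1.23, adjusted p = 2.04e-06). WNT7B rose to 21.3 ± 5.55 from 7.90 ± 0.971 CPM (1.43, adjusted p = 7.95e-05), and CCND1 to 280 ± 35.9 from 92.8 ± 3.6 (1.59, adjusted p = 4.73e-10). Within the WNK2 trans labels, sorbitol went with 12 higher and 23 lower of the 69 (48% of all genes called), with CCND1 (2.47, adjusted p = 5.8e-14) and WNT7B (2.67, adjusted p = 9.31e-09) among the rises and KREMEN1 (−1.65, adjusted p = 7.31e-09) and PTK7 (−1.41, adjusted p = 1.04e-13) the falls. In WNK2- cells sorbitol went with 4 higher and 9 lower (14.9% of all genes called), with SFRP1 higher (0.58, adjusted p = 1.15e-06) and PTK7 lower (−1.08, adjusted p = 2.01e-10). WNK2 trans Ctr against WT Ctr gave 8 higher and 6 lower (12.5% of all genes called). The genotype by sorbitol interaction passed for 3 in the positive and 11 in the negative direction (8.65% of all genes), and the transfection by sorbitol interaction for 9 and 23 (35.5% of all genes).

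**Figure D4:**
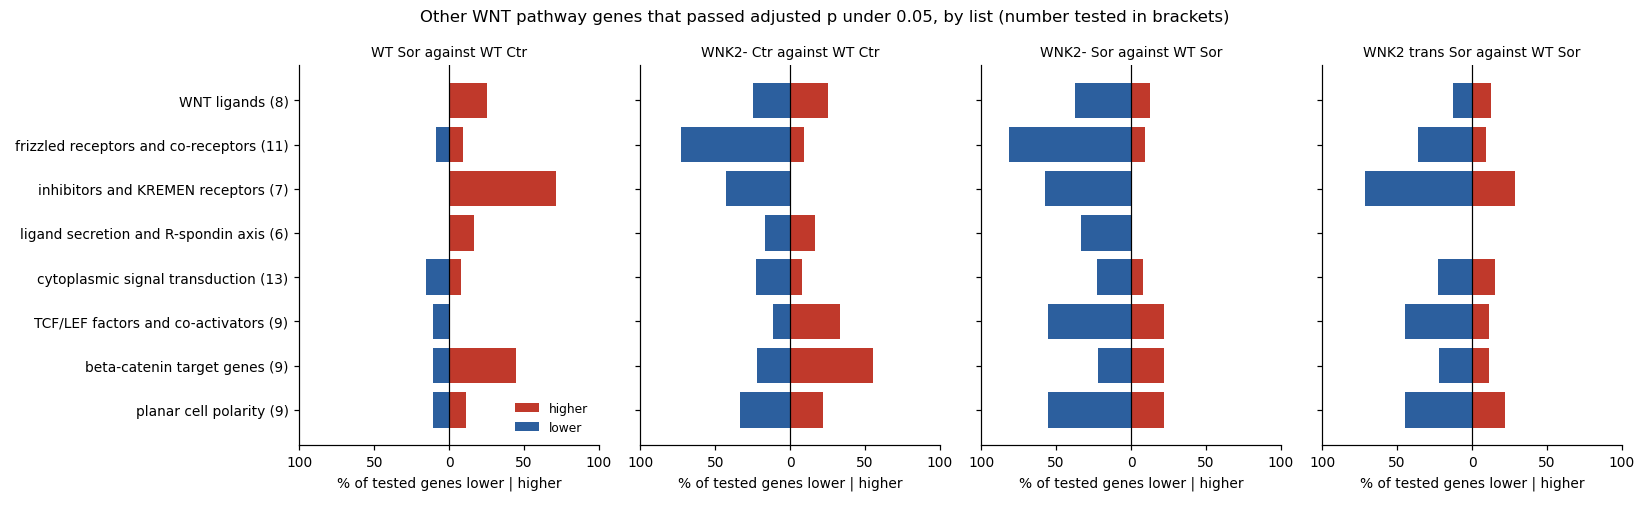
Share of the tested genes of each WNT pathway list, the 10 genes left out, that passed an adjusted p of 0.05 higher (right) or lower (left) in 4 comparisons; the number tested is in brackets. Receptors and co-receptors lie mostly on the lower side in both comparisons of WNK2- libraries (8 and 9 of 11), and inhibitors with the KREMEN receptors on the higher side with sorbitol under the WT labels (5 of 7).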

How the data were processed

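Poly(A) RNA of 24 T/C-28a2 samples was sequenced. The authors deposited raw read counts per Ensembl gene for each library, without normalization; the submitters' processing notes list FastQC 0.11.9, HISAT2 2.2.1, HTSeq 2.0.2 and DESeq2 1.38.3 with GRCh38. The annotation release and the strand setting of counting are not given in the sources used here. Samples were grouped by their labels.

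Here R 4.3.3, edgeR 4.0.16 and, as an alternative, DESeq2 1.42.0 were used. Genes with too few reads were dropped (filterByExpr, at least 10 counts and 15 in total), TMM factors were applied, and 1 quasi-likelihood model in edgeR held a mean for each of the 6 groups. From it came 9 comparisons of groups and 2 interactions. P-values were two-sided, adjusted by Benjamini and Hochberg across the 16600 genes tested, and called under 0.05. Dividing a log2 fold change by the square root of its F value gave the standard error. The test was checked on simulated counts for WT Sor against WT Ctr, drawn with the same spread in every group. That check does not cover unequal spread between groups, nor the interactions. Symbols came from a name table (62625 of 62703 identifiers) and positions from GENCODE 29. CPM per kilobase uses the joined exon length. Like genes were those with the highest Pearson correlation of log2 CPM (prior count 2) among genes with a mean of at least 3.

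All members were described. Other pathway genes were named if among the 2 largest rises or falls of their list, with a mean log2 CPM from 1 upwards and compared groups that did not overlap. LEF1 and AXIN2 are given beside them by group means alone. The members and lists were chosen with earlier results of these data known. P-values measure the spread between these libraries. For each gene that spread was estimated over all 6 groups together, though replicates were closer in some groups than in others. Alternatives were RLE and upper-quartile factors, DESeq2, no filter, at least 10 counts in every library, the compared groups alone, a replicate block, thinning to the smallest total, and each library left out in turn.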

Additional observations from a re-analysis of the deposited data

Results flagged for a closer look

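Across 60 sets of 4 libraries (10 genes in 6 groups), 3 held a library far from the other libraries of its group, and chance alone gives about 1 in 20. FZD7 in WNK2- Sor was highest in replicate 4, at 23.4 CPM. TCF7 was lowest in WNK2 trans Sor replicate 2, at 12.4 CPM, and highest in WNK2- Ctr replicate 1, at 20.9 CPM.

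The response to sorbitol differed between groups by the interaction test. Between WNK2- and WT labels the log2 differences were −1.53 for WNT5A, 0.65 for WNT5B, −2.17 for WNT6, −0.87 for FZD7, −1.20 for FZD8 and −0.58 for DKK1. Between WNK2 trans and WT labels they were −1.12 for WNT5A, 2.95 for WNT5B, −4.08 for WNT6, 1.31 for WNT9A, −0.83 for FZD2, −1.68 for FZD7, −1.68 for FZD8, −2.09 for FZD9 and −1.26 for TCF7. Both use WT Ctr and WT Sor, between which WNK2 itself differed (137 and 16.5 CPM), and the latter also WNK2 trans Ctr, where WNK2 (13.7 CPM) was below WT Ctr against its label. The difference between WNK2- and WT labels was not fitted with WNK2 trans Ctr in place of WT Ctr. On that base WNT5B rose less in WNK2- cells (0.15) than in WT Sor (0.88). FZD8 differed little on it, at 0.31 in WNK2- cells and 0.51 in WT Sor.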

How the results depend on the processing

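Of 78 calls over the 10 genes and 11 comparisons, 70 were kept under every alternative run, 8 were lost under 1 or more, and 0 turned direction. The alternatives were 8 settings and, in turn, each of the 8 libraries of a comparison or 16 of an interaction left out; WNT6 could not be fitted with at least 10 counts in every library, which it does not reach. Of 32 uncalled results 11 were called under 1 or more. TCF7 in WT Sor against WT Ctr, near 0, turned positive with upper-quartile factors (0.019), no filter (0.012), at least 10 counts in every library (0.019), the compared groups alone (0.0039) and thinning (0.00081). Leaving out single libraries gave ranges through 0 for TCF7 (−0.11 to 0.067), WNT6 (−0.085 to 0.28), WNT9A (−0.17 to 0.45) and FZD2 (−0.012 to 0.18) in that comparison, and for DKK1 in WNK2 trans Ctr against WT Ctr (−0.10 to 0.057). With the compared groups alone, genes called fell from 2082 to 747 for WNK2 trans Ctr against WT Ctr and rose from 2473 to 4825, and from 4 to 7 of the 10 genes, for WNK2- Sor against WNK2- Ctr, where the cause was not tested. Members called in WT Sor against WNK2 trans Ctr numbered 3 to 5 when 1 library was left out, at 3 without WT Sor replicates 1, 3 or 4 (6 with all). Genes called for the genotype by sorbitol interaction numbered 849 (without WNK2- Sor replicate 3) to 1918 (without WT Ctr replicate 4), against 1436.

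Same-numbered libraries did not pair. The correlation of their deviations from group means ran from −0.287 to 0.458, and no pair of groups had it over 0.1 for every number. With the replicate block, 8 members passed for WNK2- Ctr against WT Ctr and 10 for WNK2- Ctr against WNK2 trans Ctr (FZD8 at −0.41 and FZD9 at −0.79 added), and no other call on the 10 genes changed. The lowest levels, such as WNT6 in WNK2- Sor at 10 to 28 reads, limit the precision of their folds.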
